A study of Homo sapiens with 2 samples.

Results

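The cells described here were 948 OVCAR5 tumour cells of 5 hashed samples, out of 3538 cells kept from a single pool that held 15 hashed samples. OVCAR5 is an established human ovarian cancer cell line whose tissue of origin has been debated. The cells had grown as tumours in NSG-b2m-/- mice, which are immunodeficient and lack beta-2-microglobulin. The labels describe 5 tumours that were digested to single cells and then kept ex vivo for 6 h, either unstimulated, with 10 ng/ml TNFa, or with 100 ng/ml IFNy together with 10 ng/ml TNFa. Tumour cells marked with the cyan fluorescent protein CFP, called bystander cells in the labels, were sorted from the pool. Hashtags are antibody-borne barcodes that mark the sample a cell came from, and each cell carried 2 of the 10 tags. All groups therefore share the line, the host strain, the digestion and the sort, and all cells passed through 1 gene expression library, in which 0 barcodes were listed more than once.

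The labels do not say which hashtag received which treatment, so no treatment is assigned to a tag here and the hashed samples are called by their pair of tags. A barcode was kept when it had at least 1000 detected genes and at most 20% of its UMIs (unique molecular identifiers, which count molecules) from mitochondrial genes. Its 2 strongest tags named its hashed sample when the weaker of them reached 10 counts and exceeded the next tag at least 3-fold. Of the kept cells, 3144 had such a pair and 394 did not. The members were the 304 cells of HTO2+HTO5, the 145 of HTO2+HTO8, the 71 of HTO3+HTO7, the 137 of HTO4+HTO7 and the 291 of HTO4+HTO10. These 5 pairs had been picked in earlier work on the same data because their cytokine response genes were low, and were inferred, not labelled, to be unstimulated. The summed level of 21 TNF and NF-kB response genes was at most 14.4 UMIs per 10000 UMIs in the 5 members, against at least 65.8 in each of the other 10 hashed samples. For 20 interferon-gamma response genes, the highest member lay at 7.93 and the lowest other hashed sample at 9.57, so this second margin was narrow. These levels chose the members and are no finding about them. At the other thresholds, the nearest cells had 1000 detected genes inside and 987 outside, 20.0% mitochondrial UMIs on either side of the limit (19.9963 and 20.0233), and a second tag 3.15 times the next inside and 2.92 times outside.

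The 5 hashed samples held between 907526 and 3873599 UMIs. Median UMIs per cell ran between 10942 and 12369, median detected genes between 3226 and 3431, and median mitochondrial shares between 12.9% and 14.7%. Of 1411 barcodes of these pairs, 463 (32.8%) did not pass the filters. A level below is the summed count of a gene per 10000 UMIs of a hashed sample, with an exact Poisson interval at 95% that covers counting error only. No value below carries a p-value, because no label makes the hashed samples replicates of a group and cells of 1 hashed sample share their source. Low levels of cytokine response genes could include free RNA from the cytokine-treated cells of the same pool. Every cell in the pool can express these genes, so the background share was not tested.

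Keratins are the intermediate filaments of epithelial cells: KRT8 and KRT18 pair in simple epithelia, KRT19 and KRT7 mark glandular and ductal epithelia, and KRT20 marks intestinal and urothelial epithelium. EPCAM is an adhesion molecule of most carcinomas, and BMP4 is a secreted ligand of the TGF-beta superfamily that signals through SMAD1 and SMAD5 to genes such as ID1. Cancer lines often keep such epithelial genes while also carrying vimentin and other genes of mesenchymal cells.

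KRT18 was the most abundant of the epithelial genes and was seen in every cell. Its level was 29.3 in HTO2+HTO5, 28.1 in HTO2+HTO8, 26.5 in HTO3+HTO7, 31.2 in HTO4+HTO7 and 35.1 in HTO4+HTO10, and after thinning each cell to 5000 UMIs it was detected in 100% of the cells of each hashed sample. KRT19 had levels of 14.6, 16.3, 17.9, 19.8 and 19.8 in the same order, in 90.9% to 96.8% of thinned cells. EPCAM lay at 4.12, 4.03, 3.92, 4.42 and 4.71, with 72.7% to 85.9% of thinned cells positive and 88.7% to 92.4% before thinning. The 5 EPCAM levels were close. The intervals of the lowest (3.53 to 4.35) and of the highest (4.49 to 4.95) did not overlap, but they leave out variation between cells. BMP4 was the sparsest marker, at 1.97, 1.35, 1.37, 1.73 and 1.71. It was seen in 33.6% of thinned HTO2+HTO8 cells (exact binomial 95% interval 25.7% to 42.1%), in 47.4% of thinned HTO2+HTO5 cells (41.6% to 53.3%) and in shares between these in the others, and in 50.3% to 62.8% of cells before thinning. In every hashed sample cells with no BMP4 molecule stood beside cells with several. Per GENCODE 29 on GRCh38, KRT18 lies on chromosome 12 at 52948871 to 52952901 (plus strand), KRT19 on chromosome 17 at 41523617 to 41528308 (minus strand), EPCAM on chromosome 2 at 47345158 to 47387601 (plus strand) and BMP4 on chromosome 14 at 53949736 to 53958761 (minus strand).

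**Figure D1:**
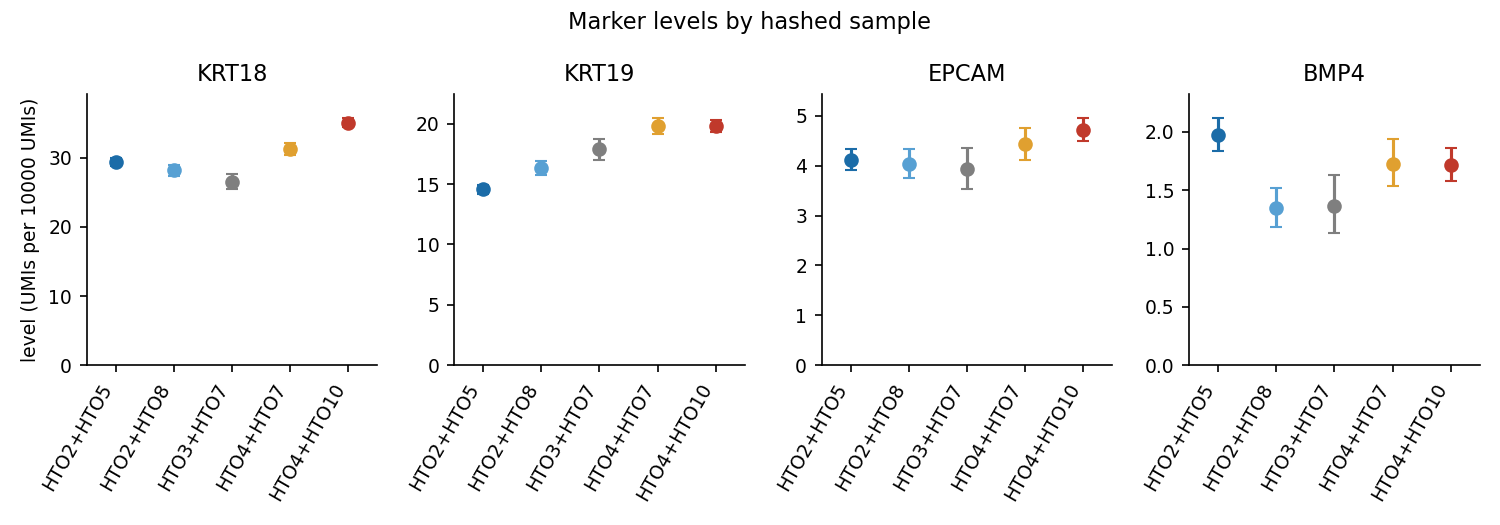
Levels of KRT18, KRT19, EPCAM and BMP4 (UMIs per 10000 UMIs, linear axes that start at 0) in the 5 hashed samples. Points are pooled levels and bars exact Poisson 95% intervals, and KRT18 spans 26.5 to 35.1 while BMP4 spans 1.35 to 1.97.

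The label of epithelial tumour cells held for keratins, EPCAM and claudins, but not for E-cadherin. The 26 genes of the epithelial list summed to 85.9, 87.0, 89.8, 101 and 104 UMIs per 10000, and 22 of them had a pooled level of at least 0.05. KRT8 (14.7 to 19.8), KRT7 (6.43 to 8.89), KRT20 (4.42 to 5.28), CD9, a tetraspanin (3.68 to 4.67), and the tight junction gene CLDN4 (1.24 to 1.94) all had levels above 1 in every hashed sample. CDH1, which encodes E-cadherin, had 32 UMIs in all 948 cells, a pooled level of 0.0273, and was seen in at most 4.55% of the thinned cells of any hashed sample. The epithelial splicing factor ESRP1 and the epithelial transcription factor GRHL2 had 1 UMI each, and OVOL1 had 0, which allows a level of up to 0.00256. ELF3, another epithelial transcription factor, was present at 0.649 to 2.22. The 3' counts include only reads that the authors' counting gave to 1 gene, so a low value can also be lost reads. ALDOA, a glycolytic enzyme, was listed at 0.0331 to 0.0678 beside 6.23 to 7.42 for TPI1, the next enzyme of the pathway, and is reported as uncertain for that reason.

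Mesenchymal genes were partly present. VIM, the vimentin filament, had levels of 14.7, 18.6, 20.0, 16.1 and 19.2 and was seen in 97.0% to 99.3% of thinned cells, so nearly all cells carried keratin and vimentin transcripts together. FN1, fibronectin, lay at 4.52 to 7.98 and S100A4, a calcium-binding protein linked to motility, at 5.96 to 12.0. Of the transcription factors that repress epithelial genes, ZEB1 had 0.219 to 0.302 and SNAI2 0.174 to 0.496, while TWIST1 had 0 UMIs. N-cadherin (CDH2), CDH11 and THY1 were also at 0, and the collagens COL1A1, COL1A2, COL3A1 and COL5A1 had at most 15 UMIs each.

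Lineage genes were mixed. Of the intestinal list, KRT20 and AGR2, a secretory disulfide isomerase, held most of the molecules. AGR2 had levels of 5.23, 3.56, 2.85, 5.45 and 6.27, highest in HTO4+HTO10 and lowest in HTO3+HTO7. CDX2, a transcription factor of intestinal identity, was detected at 0.134, 0.0858, 0.121, 0.101 and 0.124, in 4.38% to 7.04% of thinned cells. CDX1, ISX, FABP1 and GUCY2C, all genes of intestinal epithelium, had 0 UMIs and HNF4A had 3. Of the müllerian list, the ovarian and tubal markers WFDC2 (1.23 to 1.66) and SLPI (1.32 to 3.02) were present, the transcription factor PAX8 had 0.166 to 0.253, and MUC16, which encodes the CA125 antigen, had 16 UMIs in all. WT1, SOX17, PGR and KLK7 were at 0. The intestinal list of 27 genes summed to 11.3, 8.97, 8.91, 11.8 and 13.2 and the müllerian list of 18 genes to 5.57, 3.39, 3.88, 4.88 and 4.81. These sums depend on a few abundant genes of each list and rank no lineage.

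**Figure D2:**
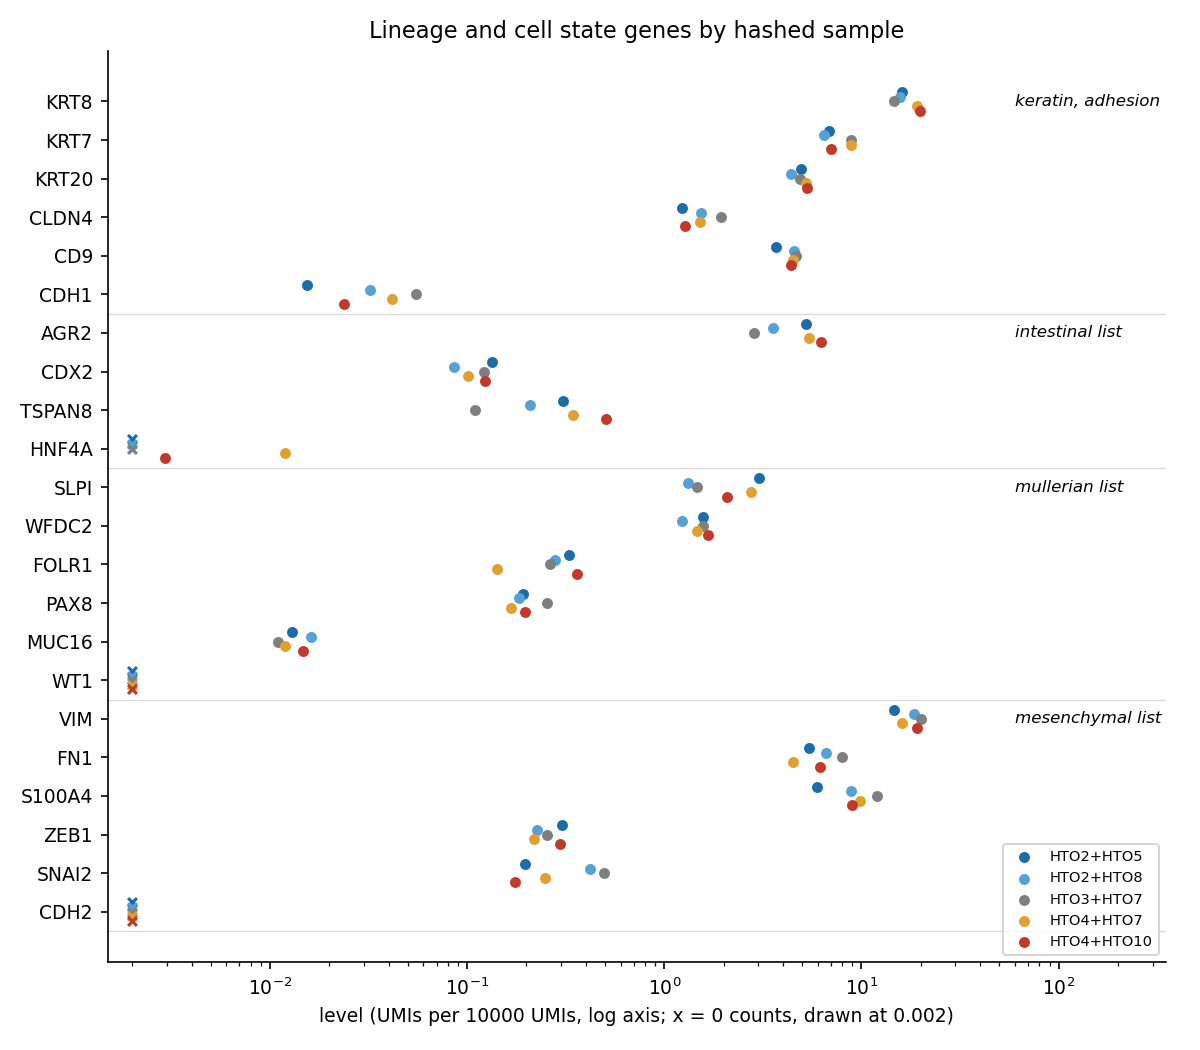
Levels (UMIs per 10000 UMIs, log axis) of keratin and adhesion, intestinal, müllerian and mesenchymal genes in the 5 hashed samples, 1 point per hashed sample, with crosses for 0 counts drawn at 0.002. Keratins, AGR2 and VIM lie above 1, CDX2 and PAX8 between 0.05 and 0.3, and WT1 and CDH2 at 0.

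Markers of other cell types were at or near 0. The 10 T and NK cell markers summed to a pooled level of 0.00853 with 6 of them at 0 UMIs, the 6 B cell markers to 0.00341 with 4 at 0, and the 5 erythroid markers had no UMI. The 9 fibroblast markers summed to 0.0213. The 10 myeloid markers reached 0.532, of which CD68 alone was 0.333 and CD14 0.0435, and the 7 endothelial markers 0.543, of which EGFL7 alone was 0.502 and PECAM1 0.0341.

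The profile was led by a long noncoding RNA and by housekeeping genes. At least 1 UMI was seen for 21220 genes, 1555 genes had a level of at least 1, and 251 genes held 50% of all UMIs. Outside mitochondrial and ribosomal protein genes, the nuclear RNA MALAT1 was highest, with 246, 233, 231, 237 and 281 UMIs per 10000. FTH1, the heavy chain of the iron store ferritin, followed at 110, 117, 91.8, 105 and 87.0, and its partner FTL lay at 32.7 to 43.0. TPT1 (49.9 to 56.4), the calcium-binding S100A6 (43.0 to 52.0), the actin binder TMSB4X (41.5 to 44.5), PTMA (39.2 to 42.4), the lectin LGALS3 (31.7 to 38.7), TMSB10 (28.5 to 39.98) and the nuclear RNA NEAT1 (25.9 to 41.9) came next. The 20 highest such genes, among them KRT18, ACTG1, ACTB, EEF1A1, HSP90AA1, S100A10, NME2 and NCL, held 9.38% of UMIs. FTH1, FTL, TPT1, PTMA, EEF1A1, TMSB4X and NME2 belong to families with near-identical copies or pseudogenes, and their levels are uncertain to that extent. The 3' counts do not scale with transcript length, so levels of different genes are compared as molecules.

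Ligands and receptors of the EGF family were expressed side by side. AREG, amphiregulin, had levels of 12.0, 18.8, 15.8, 18.1 and 10.6, and EREG, epiregulin, 2.60, 4.05, 6.56, 3.65 and 2.51. Both were lowest in HTO4+HTO10, for EREG only narrowly. Their receptor EGFR lay at 2.55 to 3.31, whereas ERBB2 was at 0.0882 to 0.154 and ERBB3 at 0.0331 to 0.0855. Other growth factor receptors with clear levels were MET (1.88 to 2.18) and FGFR1 (1.09 to 1.45). Among genes induced by ERK signalling, the cell cycle gene CCND1 had 6.91 to 8.49, PHLDA1 2.81 to 3.45, and the AP-1 subunit FOSL1 1.61 to 2.82, against 0.0661 to 0.224 for FOS. MYC varied more, at 0.852, 1.71, 2.04, 1.44 and 0.696.

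Along the BMP axis, BMP4 was the main ligand, since BMP2 had 6 UMIs and BMP7 had 1. The receptors were low, with BMPR1A at 0.0331 to 0.0826 and BMPR2 at 0.220 to 0.419. The target ID1 was abundant and even, at 4.004, 3.94, 4.04, 4.11 and 4.42. ID3 had 0.483, 0.590, 0.948, 0.688 and 0.316, and ID2 1.08, 1.496, 1.84, 1.121 and 0.793. ID2 and ID3 were thus highest in HTO3+HTO7 and lowest in HTO4+HTO10, in contrast to the BMP4 levels, which were highest in HTO2+HTO5.

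Antigen presentation genes were abundant, and B2M, the class I light chain, had 31.6, 27.5, 22.8, 29.9 and 34.8. HLA-B lay at 5.42 to 7.30 and HLA-C at 4.62 to 6.58, while NLRC5, the class I transactivator, had 22 UMIs in all. Interferon-stimulated genes were also present. IFI27 had 22.1, 27.4, 14.8, 24.6 and 35.0, ISG15 5.87, 7.11, 4.53, 6.54 and 10.8, and the antiviral membrane protein IFITM3 6.15 to 11.7. HTO4+HTO10 was highest and HTO3+HTO7 lowest for these 3 genes and for B2M. Surface antigens followed no single pattern: CD59 (3.397 to 4.73) and CD55 (2.103 to 2.46), which block complement, stood above CD276 (0.209 to 0.372), MSLN (0.0483 to 0.0992) and FOLR1 (0.142 to 0.363), and SLC34A2 was at 0. Of the tumour suppressor genes, CDKN2A and CDKN2B had 0 UMIs in the 948 cells, which allows levels of up to 0.00256, whereas RB1 had 0.320 to 0.510.

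Variation from cell to cell was measured in 892 cells thinned to 5000 UMIs, leaving out 56 shallower cells. Where molecules are only sampled, the variance of a gene's count over cells equals its mean. A gene was called variable when the ratio of variance to mean was at least 1.5 in each of the 5 hashed samples. Of 5446 genes with a mean of at least 0.1 UMI per thinned cell, 215 were variable, 3.95% of those tested. The count depends on the settings: it was 105 with cells thinned to 3000 UMIs, 334 at 8000 UMIs, 111 with a mitochondrial limit of 10% and 101 with a ratio of at least 2. The rule depends on abundance, since 160 of the 739 tested genes with a mean of at least 1 were variable. Of the epithelial list, 8 of 19 tested genes were variable, of the mesenchymal list 4 of 7, of the annexin and S100 list 7 of 12, of the stress list 7 of 14 and of the secreted list 10 of 21. For the interferon-gamma list the count was 0 of 10 tested genes and for the TNF list 4 of 10. Low levels of these lists chose the members, so these counts are no finding about them. The call also needs all 5 hashed samples: in HTO2+HTO5 the summed interferon-gamma list had a ratio of 14.4. Among technical classes, 10 of 13 mitochondrial genes and 35 of 88 ribosomal protein genes were variable.

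Ranked by the smallest ratio of the 5 hashed samples, abundant genes led, and 8 of the 25 highest were mitochondrial. MT-ATP6, with ratios of 10.9 to 14.6, came next after MALAT1 and FTH1. In HTO4+HTO10 alone, CXCL8 (51.4) and the growth arrest gene GADD45A (49.7) had ratios above that of MALAT1. In that hashed sample 1 cell held 174 UMIs of the TNF list, against 39 in the next. The tumour suppressor and apoptosis list had 78 UMIs in its highest cell and 8 in the next. Whether the CXCL8 and GADD45A ratios rest on single cells was not tested. MALAT1 had ratios of 32.9 to 48.9 over the hashed samples, with 49.1, 122 and 231 UMIs per thinned cell at the 10th, 50th and 90th percentiles. MALAT1 counts ran against GAPDH counts (median Spearman rho -0.36 over the 5 hashed samples) and with NEAT1 (0.39), against a rho of 0.05 with mitochondrial counts and -0.19 with the depth of the cell before thinning. These relations are across cells of 1 library and their part in the variation was not tested. FTH1 had ratios of 13.2 to 21.9, AREG 7.43 to 16.6, S100A4 6.97 to 12.1, the scaffold protein AKAP12 6.81 to 10.7, IFI27 6.62 to 10.7 and FABP4, a fatty acid carrier, 6.47 to 20.3. Of the 4 markers, KRT18 had ratios of 4.90 to 7.02, KRT19 4.07 to 6.74, EPCAM 1.61 to 2.17 and BMP4 1.71 to 3.03. KRT18 was thus present in every cell and uneven in amount, with the 10th percentile between 4 and 6.9 and the 90th between 22.5 and 32 UMIs per thinned cell.

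Among the variable genes, the most uneven relative to their own mean were sparse ones. The rule for variable genes admits a sparse gene only at a large relative spread, so this order partly follows from the rule. Expressed as the coefficient of variation beyond sampling error, CST1, a cystatin protease inhibitor, reached 5.83 and was seen in 6.73% of thinned cells. HIST1H1B, a linker histone made in S phase, reached 5.08 in 4.71% of cells, and the proliferation gene MKI67 4.69 in 5.83% of cells. The acute phase gene SAA1 (3.97), the chemokine CXCL8 (3.54), the mucin MUC5B (3.42), the keratin KRT17 (3.12) and FABP4 (3.07) were uneven in the same way. FABP4 had a level of 4.07, 1.42, 3.55, 1.82 and 3.19 but was seen in only 26.5% of thinned cells. This ranking was chosen after the values were seen. It left out genes that were not called variable, such as HMOX1, which had a value of 5.02.

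**Figure D3:**
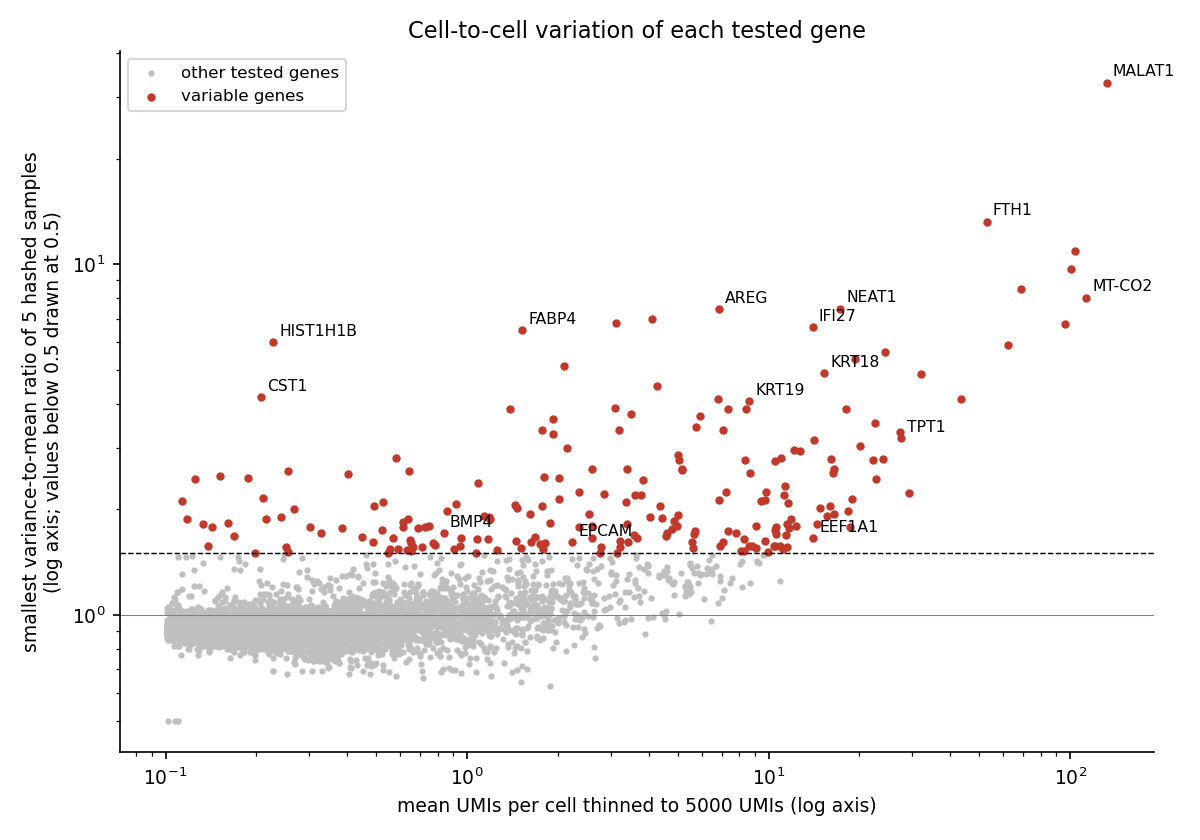
Each point is 1 of 5446 tested genes, with its mean count per cell thinned to 5000 UMIs on the x axis and the smallest variance-to-mean ratio of the 5 hashed samples on the y axis (both log axes). The 215 variable genes lie above the dashed line at 1.5, with MALAT1 at 32.9 and FTH1 at 13.2, whereas the median tested gene has a ratio of 0.924.

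Single cells stood far above the rest in cytokine response molecules. In thinned cells of HTO2+HTO5, the interferon-gamma list had a median of 3 UMIs and a 90th percentile of 6, but 1 cell had 107 and another 58. In HTO4+HTO10 the TNF list had a median of 5 and a 90th percentile of 11, and 1 cell had 174 UMIs while the next had 39. CXCL8 had a variance-to-mean ratio of 51.4 in HTO4+HTO10 and of 2.00 in HTO2+HTO8. Whether such cells were doublets with a cytokine-treated cell or a wrong tag call was not tested.

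Molecules of mitotic genes were concentrated in few cells of each hashed sample. The 19 G2 and M phase genes summed to 5.53, 5.17, 2.69, 7.31 and 5.99 UMIs per 10000, the median thinned cell had 0 of these molecules, and 29.4% of thinned cells had at least 1. In HTO4+HTO10 the highest cell had 73. Without the 5% of cells with the most UMIs the pooled level was 3.25, against 5.64 with them.

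Genes also moved between the hashed samples. A gene was called spanning when its highest level was at least 2 times its lowest, with the lower bound of the exact ratio interval at 1.5 or more, among genes with a pooled level of at least 0.2. This held for 203 of 5518 genes, 3.68%, with a median ratio of 1.34 over all tested genes. The hashed samples come from tumours that the labels do not tie to tags, so differences between tumours, tags and handling cannot be told apart. Of the spanning genes, 83 were highest in HTO4+HTO10 and 50 in HTO3+HTO7, the smallest hashed sample. Without HTO4+HTO10 the count was 111 and without HTO3+HTO7 it was 121. It was 73 with a lower bound of at least 2 and 522 with no filter on low levels. By list, 10 of 12 tested interferon-stimulated genes, 9 of 10 G2 and M phase genes and 8 of 19 hypoxia and glycolysis genes were spanning. Of the ribosomal and translation list 0 of 12 were, and of the cytoskeletal genes 0 of 17. The ratio interval covers counting error only. Because G2 and M phase molecules sat in few cells, those 9 genes are not separate cases. The HIST1H1B-led cluster described below held 4 of 71 HTO3+HTO7 cells (interval 1.56% to 13.8%) and 14 of 137 HTO4+HTO7 cells (5.70% to 16.6%).

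Some genes that are induced by low oxygen stood apart in HTO4+HTO10. EGLN3, a prolyl hydroxylase that is itself a hypoxia target, had 3.39 UMIs per 10000 there and 0.682, 0.198, 0.242 and 0.243 in HTO2+HTO5, HTO2+HTO8, HTO3+HTO7 and HTO4+HTO7, a ratio of 17.1 between highest and lowest (12.3 to 24.4). ANGPTL4, a secreted lipase inhibitor, had 3.42 there and 0.445 to 1.08 elsewhere. DDIT4, an inhibitor of mTORC1, had 2.38 against 0.427 to 0.971, the glycolytic regulator PFKFB3 1.35 against 0.220 to 0.400, NDRG1 1.38 against 0.320 to 0.408, PDK1 0.454 against 0.0429 to 0.163 and the histone demethylase KDM3A 0.463 against 0.0415 to 0.176. HTO4+HTO10 lay above each of the other 4 hashed samples for these 7 genes. The whole hypoxia and glycolysis list was less separated, with sums of 61.7, 62.8, 75.4, 60.6 and 78.4. Abundant glycolytic enzymes such as PKM (11.3 to 11.9) and TPI1 differed little. Interferon-induced IFIT1 also had its highest level in HTO4+HTO10, 0.687 against 0.0771 to 0.198, as did MX1 with 2.00 against 0.430 to 0.922.

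Other spanning genes had their extremes elsewhere. STC2, a stanniocalcin, was highest in HTO3+HTO7 at 1.83, against 0.357 to 0.807, and the haem-degrading HMOX1 was lowest in HTO4+HTO7 at 0.178, against 0.692 to 1.37. LCN2, a siderophore-binding lipocalin, had 17.4, 6.88, 10.9, 18.4 and 12.6, and SLPI had 3.02, 1.32, 1.47, 2.76 and 2.09. Both were highest in HTO2+HTO5 and HTO4+HTO7 and lowest in HTO2+HTO8. The thioredoxin reductase TXNRD1 was lowest in HTO4+HTO10, at 6.91, against 12.2 to 15.6.

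**Figure D4:**
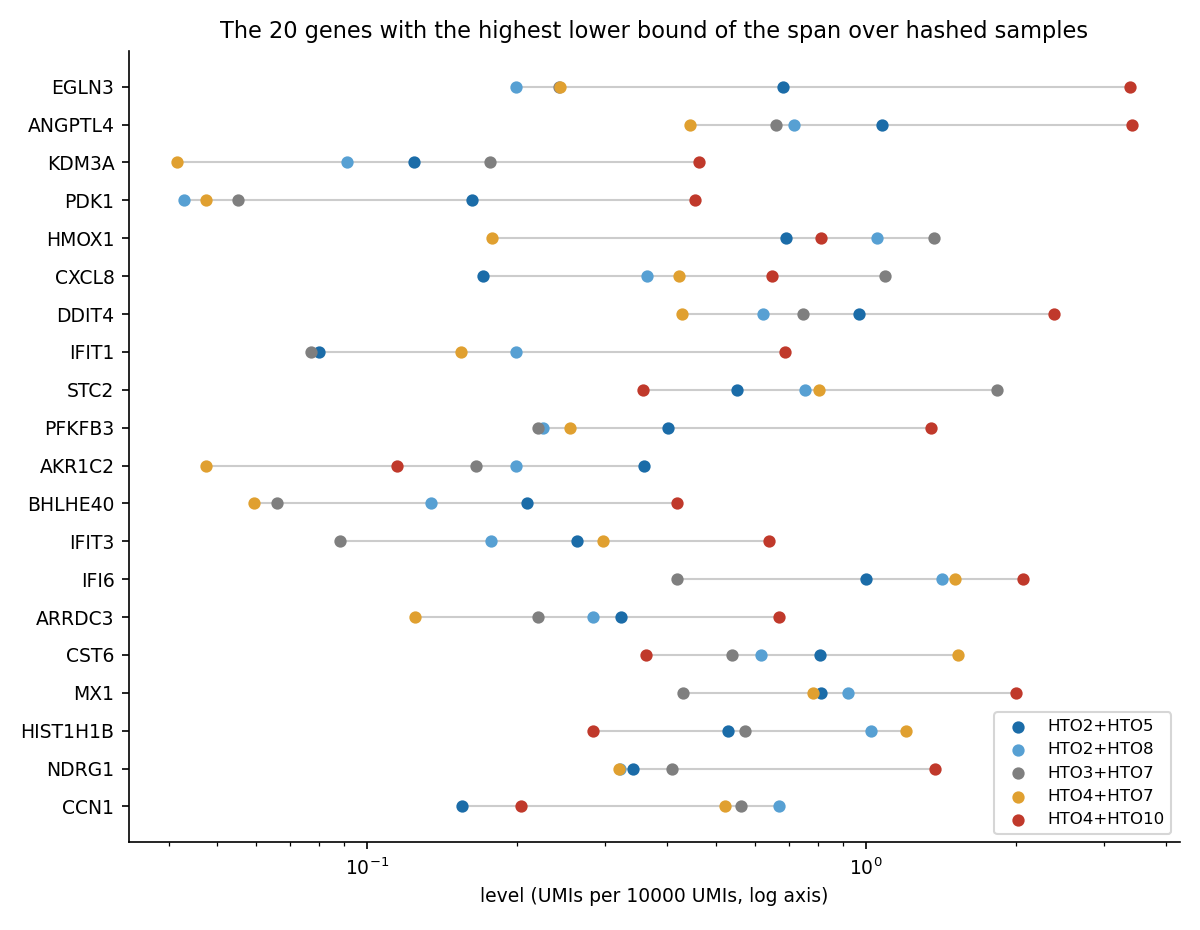
Levels (UMIs per 10000 UMIs, log axis) in the 5 hashed samples of the 20 genes with the highest lower bound of the ratio between highest and lowest hashed sample, 1 point per hashed sample. EGLN3 lies at 3.39 in HTO4+HTO10 and at 0.198 to 0.682 in the other hashed samples.

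Clustering of the 948 cells gave 6 clusters, which are described by number and leading genes because they were built from the same counts. The largest, cluster 1 with 361 cells, was led by FABP4 (4.73 in the cluster and 2.15 elsewhere), CMTM8, ST3GAL5, NNMT and the complement and lipid genes C3 and APOE. FABP4 was seen in 37.7% of the cells of cluster 1 and in 31.9% of the other cells, so it marked them weakly. Cluster 1 made up 54.6% of HTO2+HTO5 and 21.1% to 35.7% of the other hashed samples. Cluster 2, with 202 cells, was led by CCN1 (0.919 and 0.179 elsewhere), F3, the tissue factor that starts coagulation (3.38 and 0.686), FGFBP1 and the WNT inhibitor DKK1, and had the highest KRT19 (24.3), KRT7 (11.03) and AREG (23.4) of all clusters. Cluster 3, with 158 cells, was led by the metallothioneins MT1X, MT1E and MT2A and by MMP7 and HMGA2. Its mesenchymal list summed to 52.4, against 34.0 elsewhere, and its intestinal list to 7.89, against 12.1 elsewhere. VIM was 23.2 in it, below the 27.1 of cluster 5 and above the 12.1 to 19.3 of the others. S100A4 was highest in cluster 3, at 14.3. Other mesenchymal genes did not follow: FN1 was 5.32 in cluster 3, above the 3.03 of cluster 5 but below the 6.16 to 6.91 of the others. SNAI2 was among the leading genes of cluster 2 (0.506 and 0.189 elsewhere). KRT18 was 25.9 in cluster 3, between 23.9 in cluster 5 and 34.8 in cluster 2, so all clusters kept keratin transcripts.

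The 3 smaller clusters were more distinct. Cluster 4, with 103 cells, was led by DEPP1, IFIT1 (1.84 and 0.1002 elsewhere), IFIT3 and EGLN3 (5.32 and 0.814), and 86.4% of its cells came from HTO4+HTO10, of which it made up 30.6% (exact binomial 95% interval 25.3% to 36.2%), against 0% to 3.45% of the others. The 0 of 71 cells in HTO3+HTO7 allow a share of up to 5.06% by the same interval. A cluster mostly of 1 hashed sample may be that sample and not a state. Cluster 5, with 65 cells, was led by HIST1H1B, DLGAP5, GTSE1 and MKI67 (4.08 and 0.0153 elsewhere). Its G2 and M phase list summed to 46.4, against 0.644 elsewhere, and it made up 5.59% to 10.2% of each hashed sample. Its median of 19355 UMIs per cell stood above the 10862 to 12708 of the other clusters. Cluster 6, with 59 cells, was led by DDIT3, the CHOP transcription factor (5.91 and 0.334 elsewhere), ATF3, DNAJB9, SESN2, HERPUD1 (7.76 and 0.579) and HMOX1 (5.504 and 0.445). Its stress list summed to 133, against 27.4 elsewhere, and BMP4 was 0.313 in it, against 1.25 to 2.13 in the other clusters. It made up 16.9% of HTO3+HTO7 (interval 9.05% to 27.7%) and 2.75% to 8.97% of the others.

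**Figure D5:**
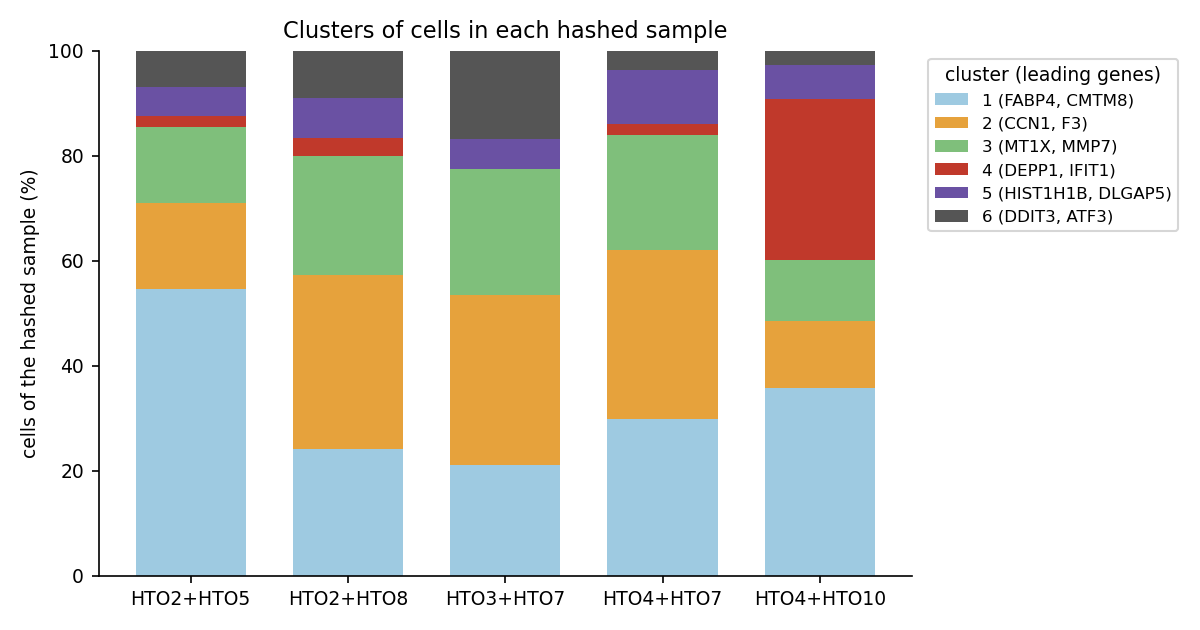
Share of cells (%) of each hashed sample in the 6 clusters, with 2 leading genes per cluster in the legend. Cluster 4 makes up 30.6% of HTO4+HTO10 and at most 3.45% of the others, and cluster 5 makes up 5.59% to 10.2% of each.

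Promoters of 4 genes that vary between cells or clusters are shown with 1 or 2 short motifs each, found on either strand by letters alone. They come from RefSeq on GRCh38.p14 and run 5′ to 3′ on the strand of the gene, with 250 bases before and 50 after the start site. Capitals mark the motif: TGACGTCA, the cyclic AMP response element, in AREG (chr4:74444886-74445185, plus strand), GGAATG, a TEAD site, in CCN2 (chr6:131951323-131951622, minus strand), CCAAT followed after 9 bases by CCACG, the endoplasmic reticulum stress element, in HSPA5 (chr9:125241294-125241593, minus strand), and ACGTG or GCGTG, the core of the hypoxia response element, in DDIT4 (chr10:72273674-72273973, plus strand).
AREG: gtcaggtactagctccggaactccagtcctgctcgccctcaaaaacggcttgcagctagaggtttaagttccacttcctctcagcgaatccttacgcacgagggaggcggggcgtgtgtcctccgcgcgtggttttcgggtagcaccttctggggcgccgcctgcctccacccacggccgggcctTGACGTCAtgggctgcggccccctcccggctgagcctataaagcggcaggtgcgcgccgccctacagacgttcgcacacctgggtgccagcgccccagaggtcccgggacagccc
CCN2: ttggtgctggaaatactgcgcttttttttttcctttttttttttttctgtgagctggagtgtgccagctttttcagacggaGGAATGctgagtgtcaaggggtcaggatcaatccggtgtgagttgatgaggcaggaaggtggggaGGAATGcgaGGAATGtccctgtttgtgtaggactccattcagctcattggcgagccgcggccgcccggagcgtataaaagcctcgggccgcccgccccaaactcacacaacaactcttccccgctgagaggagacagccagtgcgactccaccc
HSPA5: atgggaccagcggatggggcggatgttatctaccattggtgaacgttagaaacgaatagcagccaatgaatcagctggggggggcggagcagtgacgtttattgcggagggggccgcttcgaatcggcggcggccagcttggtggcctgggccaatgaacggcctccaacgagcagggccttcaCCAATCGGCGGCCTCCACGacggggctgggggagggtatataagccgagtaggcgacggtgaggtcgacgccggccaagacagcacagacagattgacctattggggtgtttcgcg
DDIT4: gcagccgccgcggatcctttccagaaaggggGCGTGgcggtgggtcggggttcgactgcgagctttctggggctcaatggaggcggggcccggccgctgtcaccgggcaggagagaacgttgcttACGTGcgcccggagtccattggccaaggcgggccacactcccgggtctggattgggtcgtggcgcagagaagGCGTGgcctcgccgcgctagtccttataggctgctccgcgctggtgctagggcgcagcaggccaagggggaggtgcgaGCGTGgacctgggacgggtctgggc

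The AREG match began 65 bases before the start site, the 3 CCN2 matches 169, 104 and 95 bases before it, and the HSPA5 match 66 bases before it. DDIT4 held 1 ACGTG and 3 GCGTG. Of 35116 such windows, 1.85% held TGACGTCA, 14.03% GGAATG, 0.0769% the stress element and 48.4% ACGTG or GCGTG, so the last is common. The window of HERPUD1 held no match to the stress element in this spelling, which says only that these letters were not there. A match is a description and not a bound site. The genes differed between cells as follows. AREG was highest in cluster 2, at 23.4, and lowest in cluster 1, at 7.61, with 21.3 in cluster 6. CCN2 was highest in cluster 6, at 1.07, and lowest in cluster 3, at 0.0597. Its levels in clusters 2 and 1 were 0.595 and 0.110. HSPA5 had variance-to-mean ratios of 4.49 to 12.99, and DDIT4 of 1.53 to 2.63.

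Correlations between variable genes within hashed samples were mostly weak, and the highest joined genes of the cell cycle or partners of 1 structure. Over 14365 pairs of 170 variable genes, the median Spearman rho of the 5 hashed samples was 0.3 or more for 168 pairs and -0.3 or less for 13, with a median of 0.0036 over all pairs. RRM2, which makes deoxynucleotides, and MKI67 had a rho of 0.73, and HIST1H1B and MKI67 one of 0.63. KRT18 and KRT8 had a rho of 0.61 (0.53 to 0.73 over the hashed samples). Their full annotated extents overlap on opposite strands of chromosome 12 (KRT8 runs to 52949954 and KRT18 starts at 52948871). Which transcript start sites were in use was not examined, and 3' counts come mostly from the other ends. KRT19 ran with KRT7 (0.40), KRT20 (0.40) and AGR2 (0.41). EPCAM had lower values with KRT18 (0.20) and KRT19 (0.31), and KRT18 with VIM had a median of -0.10 (-0.18 to 0.16). Between clusters, VIM was 23.2 and 27.1 in clusters 3 and 5, where KRT18 was 25.9 and 23.9, and VIM was 13.4 and 13.8 in clusters 1 and 2, where KRT18 was 34.3 and 34.8, whereas cluster 6 was low in both (VIM 12.1, KRT18 24.3). VIM ran with the lectin LGALS1 (0.34). IFI27 ran with ISG15 (0.47), the chaperones HSPA5 and HSP90B1 with each other (0.47), FTH1 with FTL (0.46), AREG with the TWEAK receptor TNFRSF12A (0.43) and with EREG (0.34), and ID1 with ID3 (0.36). BMP4 and its target ID1 had a median rho of 0.09, with values between -0.07 and 0.20. These values are across cells that share a library and a depth after thinning, and counts this sparse lower the rho of genes such as BMP4.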

How the data were processed

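The deposited values are raw UMI counts for 36601 genes and 10 hashtags in each of 5269 barcodes. Cell Ranger 5.0.1 made the matrix, per the file headers, but Cell Ranger 2.1.1 and GRCh38 stand in the submitters' processing notes, and the difference could not be settled. How barcodes were called as cells and whether counting used strand are not given in the sources used here. Depth was 11722279 UMIs over 948 cells. Levels were summed counts per 10000 UMIs with exact Poisson intervals at 95%, which cover counting error only, and limits and ratios took 3 counts in place of 0. Cells were thinned to 5000 UMIs without replacement (seed 1). Clusters came from scanpy 1.11.5 with leidenalg 0.10.2, on 2000 variable genes, 30 principal components, 15 neighbours and a resolution of 0.5. A cluster's leading genes have the largest ratio of levels inside to outside it, given detection in 25% or more of its cells. Python 3.11.15, numpy 2.4.6, scipy 1.17.1 and pandas 2.3.3 were used, and the variance, span and pair rules were tested on simulated data. No doublet caller was run: droplets with another strong hashtag had no clear pair and were left out, and doublets within a hashed sample were not sought. The members, gene lists and rules were chosen with earlier results of these data known. Named genes were the 4 markers, the 20 highest genes, the 25 with the largest smallest variance-to-mean ratio, the 20 with the widest span by lower bound, and the highest or absent members of each gene list, and others, such as leading genes of clusters, were chosen after their values were seen. The symbols CYR61 and WARS1 were measured under CCN1 and WARS, and GPX1 was not analysed here. Some genes are not reported here.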

Additional observations from a re-analysis of the deposited data

Results flagged for a closer look

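In 8 of 67 sets of 5 values examined, 1 hashed sample lay far from the nearest of the other 4 relative to the whole range (Dixon's ratio above 0.71). Chance alone does this in about 1 in 20 sets, but that rate does not apply here to genes that were named for their wide span over the same 5 values: EGLN3, ANGPTL4, DDIT4, IFIT1, PFKFB3 and NDRG1. The 67 sets included all 20 genes named for their span. Outside those 20, only MALAT1 and NCL stood apart, which is no more than 1 in 20 of such sets. MALAT1 passed the limit narrowly, with a ratio of 0.7107. All 8 lay in HTO4+HTO10. It was the highest for ANGPTL4 (3.42 UMIs per 10000), DDIT4 (2.38), EGLN3 (3.39), IFIT1 (0.687), MALAT1 (281), NDRG1 (1.38) and PFKFB3 (1.35), and the lowest for NCL (19.5). The median mitochondrial share of this hashed sample was 13.3%, within the 12.9% to 14.7% of the 5, and its median of 10942 UMIs per cell was the lowest of the 5. The part of depth in these values was not tested.

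The 463 barcodes of these pairs that did not pass the filters, which no result above uses, still held the epithelial list at 62.6 UMIs per 10000, against 93.8 in the 948 cells. Their median mitochondrial share was 31.1% and their median depth 4559 UMIs.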

How the results depend on the processing

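Of 77 values under alternatives, 62 stayed within the limits set for a small change and 15 moved. With a mitochondrial limit of 10%, 197 cells were left (12 of them in HTO3+HTO7), the G2 and M phase list was 9.16 against 5.64 UMIs per 10000, and 111 genes were variable against 215. Without the 5% of cells with the most UMIs that list was 3.25. Per 10000 UMIs outside mitochondrial and ribosomal protein genes the epithelial list was 128.5 against 93.8, the intestinal list 15.6 against 11.4, the müllerian list 6.54 against 4.77 and the G2 and M phase list 7.73, which follows from the smaller total. Variable genes numbered 105 after thinning to 3000 UMIs, 334 after thinning to 8000 and 101 at a ratio of at least 2. Spanning genes numbered 522 with no filter on low values and 73 with a lower bound of at least 2, against 203. Leaving out 1 hashed sample at a time gave 644 to 877 cells, 111 to 186 spanning and 217 to 247 variable genes, and levels of 89.6 to 97.7 for the epithelial, 10.6 to 11.8 for the intestinal, 4.38 to 5.03 for the müllerian and 5.36 to 5.89 for the G2 and M phase list. Clusters numbered 4 at a resolution of 0.3 and 7 at 0.8, settings chosen after seeing the data. No paired analysis was possible because the labels give the hashed samples neither groups nor replicate numbers. Depth limits genes below about 0.2 UMIs per 10000, and a count of 0 in the smallest hashed sample allows a level of up to 0.0331.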
